A study of Homo sapiens with 6 samples.

Results

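Axon guidance ligands and receptors were examined in HCCLM3 cells, an established human hepatocellular carcinoma line, with and without overexpression of the long non-coding RNA LINC00862. The members were the genes whose symbols name a semaphorin of classes 3 to 7, a plexin, a neuropilin, an Eph receptor, an ephrin, a Slit, a Robo, a netrin or an Unc5 receptor. These name patterns found 67 of the 35856 genes listed, 35 ligands and 32 receptors. The patterns use no measured value, but the families were chosen with earlier results of these data known. RNA was sequenced from 3 libraries of cells transfected with a LINC00862 vector (group LINC00862) and from 3 libraries of control cells (group NC). The NC cells were taken to carry the empty vector, which the sample titles do not name. On that reading, both groups share the parental line and a transfection, and no library of untransfected cells was analysed here. The sources used here do not say whether the sequenced cells were a stable line, a pool or a clone, or whether the libraries of a group came from separate cultures, so the p-values measure only the spread between these libraries, which may be technical.

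Axon guidance cues steer the growing tips of nerve fibres, and the same molecules act outside the nervous system in vessel growth, epithelial organisation and tumour cell movement. Secreted class 3 semaphorins bind neuropilins, which signal through plexins, whereas most membrane-bound semaphorins bind plexins directly. Ephrin-A ligands are anchored by a lipid and mainly bind EphA receptors, ephrin-B ligands span the membrane and mainly bind EphB receptors, and both can also signal back into the cell that carries them. Slits repel through Robo receptors, and netrins attract through DCC or repel through Unc5 receptors.

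The labels were checked on LINC00862 itself. Its count was 11, 21 and 6 in NC libraries 1, 2 and 3 and 145, 121 and 76 in LINC00862 libraries 1, 2 and 3, so the groups did not overlap (log2 fold change 3.22, SE 0.53, adjusted p = 0.000583, and 3.83 without NC library 2). Library totals lay between 58241123 and 68229070 counts. Across all genes, Spearman correlations of FPKM (fragments scaled by transcript length and library depth) were 0.896 to 0.909 within groups and 0.754 to 0.767 between them. The LINC00862 gene averaged only 0.0507 FPKM in group NC and 0.449 in group LINC00862. Scaled counts of 71.1% of all tested genes also did not overlap between the groups, so this gene checks the labels only weakly. Markers of cell state moved with the groups. Of 8 epithelial markers 7 were higher and none lower in LINC00862, with a summed level of 194 to 287 FPKM in NC and 491 to 563 in LINC00862. Nearly all of the NC sum came from the keratin genes KRT8, the marker that was not called, and KRT18. Of 8 mesenchymal markers 7 were lower and 1 higher, with sums of 951 to 974 FPKM in NC and 16.3 to 21.3 in LINC00862. Of 10 hepatocyte and hepatoma markers 6 were higher and 2 lower, with sums of 3.02 to 3.56 FPKM in NC and 527 to 601 in LINC00862, nearly all of it fibrinogen (FGB). The defining hepatocyte gene ALB averaged only 0.0078 FPKM in NC and 1.51 in LINC00862, TTR and GPC3 had no count in any NC library, and AFP had none in any LINC00862 library. The neuronal list, with 6 of its 8 genes analysed (3 higher, 1 lower), summed to 0.36 to 0.488 FPKM in NC and 27.2 to 33.9 in LINC00862, nearly all of it the neurofilament gene NEFL. Of 7 endothelial markers 1 was higher (sums 1.37 to 1.97 and 4.58 to 6.02 FPKM), as was 1 of 6 leukocyte markers (sums 2.47 to 2.84 and 5.57 to 7.35 FPKM), and neither list had a gene called lower. The part of these differences in the member values was not tested. In bulk RNA, fewer cells of a type and less RNA per cell cannot be told apart, and whether the cells of the groups differed in other ways than the vector cannot be told apart from a response to LINC00862.

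Of the 67 members 59 had enough counts to be tested, and 47 of them differed between the groups with edgeR's quasi-likelihood test at a Benjamini-Hochberg adjusted p under 0.05. That is 79.7% of the tested members, beside 64.2% of all 20741 tested genes. Fewer members rose than fell: 20 were higher in LINC00862 (33.9%, beside 34.4% of all tested genes) and 27 were lower (45.8%, beside 29.8%). TMM-scaled counts did not overlap between the groups in 54 tested members (91.5%, beside 71.1% of all tested genes). The median log2 fold change was -0.58 over the members and 0.11 over all tested genes, and the median size of the change regardless of direction was 2.34 and 1.16. A fitted change of at least 8-fold was found in 24 members, 12 in each direction. That is 40.7% of those tested, beside 21.4% of all tested genes. Among these members, the counting intervals of SEMA6D, SLIT1, UNC5A and UNC5C, given below, reach under 8-fold. Such intervals were computed only for members with no more than 12 counts in a group. Of the others, EPHB6 (log2 fold change 3.27, SE 0.83), SEMA4G (3.18, SE 0.23) and ROBO3 (-3.17, SE 0.27) lie within 1 SE of 8-fold. Of the 34 members with a mean of at least 1 FPKM in either group, 22 were lower, 8 higher and 4 not called. Below that level 12 were higher and 5 lower. The shares of all tested genes above and below this level were not computed, so the split cannot be called particular to the members. The summed FPKM of all members nevertheless overlapped between the groups, with 240, 200 and 206 in NC and 246, 245 and 211 in LINC00862 (exact two-sided permutation p = 0.2). EFNA1 alone made up 2.85% ± 0.663 (SD, n = 3) of that sum in NC and 54.2% ± 1.2 (SD, n = 3) in LINC00862, and without it the sums were 195 to 234 in NC and 99.2 to 113 in LINC00862.

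**Figure D1:**
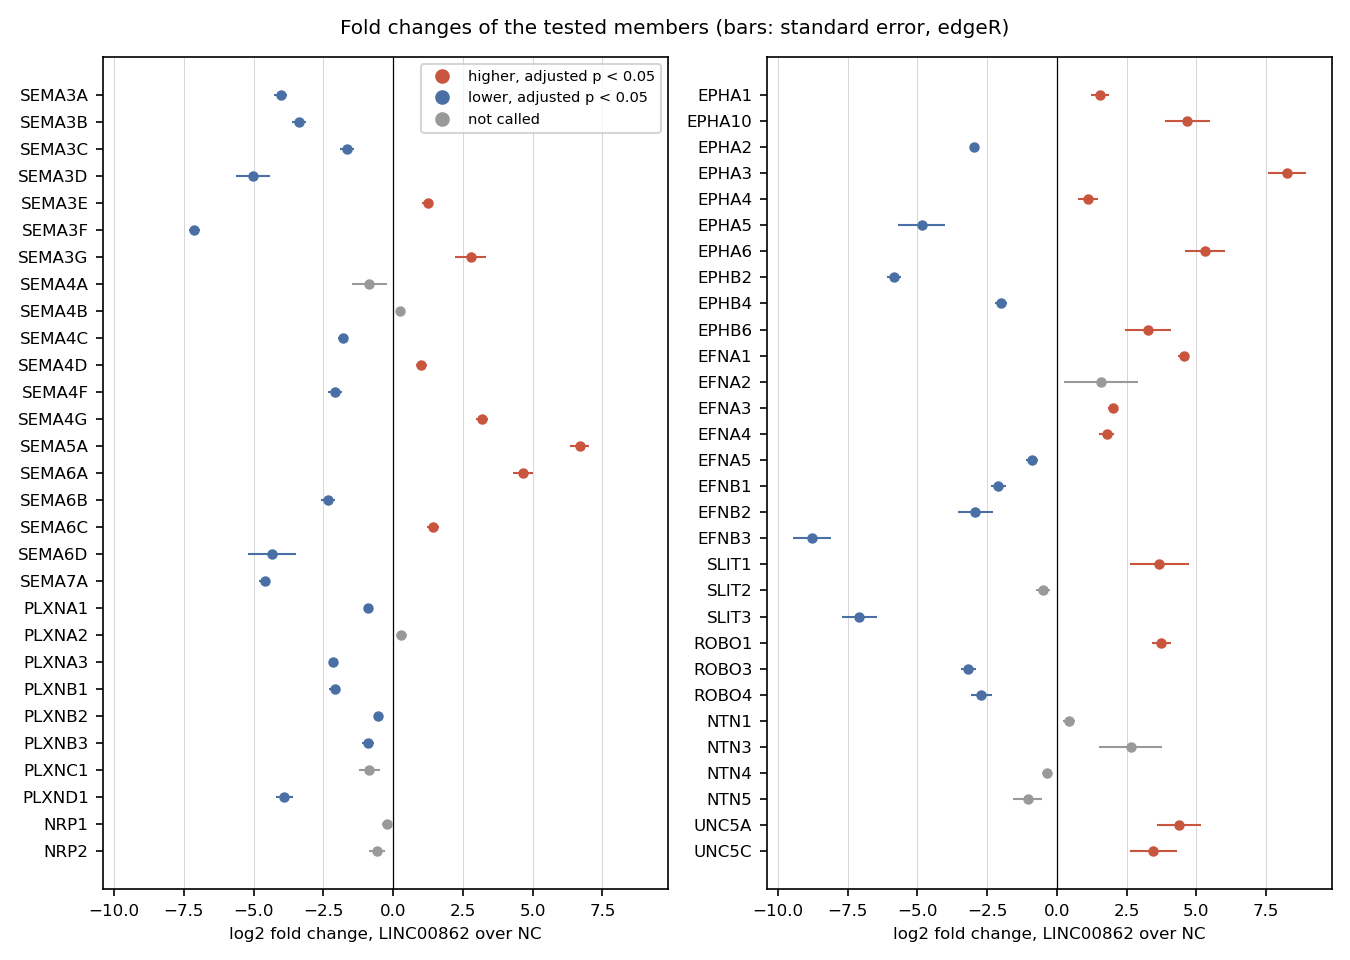
Log2 fold change (horizontal axis, LINC00862 over NC, with its standard error) of each of the 59 tested members, from edgeR. Red points are the 20 members called higher, blue points the 27 called lower and grey points the 12 not called; class 3 semaphorins, plexins and ephrin-B ligands lie mostly or wholly to the left of 0, and the widest bars belong to members with few counts.

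Class 3 semaphorins, the secreted branch of the family, differed in all 7 members, beside 64.2% of all tested genes. Of the 7 members 5 fell (71.4%, beside 29.8% of all tested genes). SEMA3F, a repellent that acts mainly through neuropilin-2, was at 9.33, 7.84 and 8.75 FPKM in the NC libraries and at 0.0527, 0.0519 and 0.0506 in the LINC00862 libraries. It showed the largest fall of the class, 140-fold (log2 fold change -7.13, SE 0.19, adjusted p = 2.9e-08), and its 55 counts over the LINC00862 group lie above the 12 counts taken as the floor. SEMA3B, its neighbour on chromosome 3 and like SEMA3F known as a candidate tumour suppressor, was at 8.69, 10.8 and 11.6 FPKM in NC and at 0.677, 0.962 and 1.02 in LINC00862, a 10.3-fold fall (adjusted p = 3.6e-06). SEMA3A, the classical growth cone collapsing factor, was at 5.98, 4.37 and 3.09 FPKM in NC and at 0.206, 0.267 and 0.245 in LINC00862. Its log2 fold change was -4.03 (SE 0.24, adjusted p = 1.38e-06), and the lowest NC library lay far above the highest LINC00862 library.

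SEMA3C, a semaphorin with a role in heart outflow tract development, was at 12.7, 7.49 and 5.42 FPKM in NC, a wide spread, and at 2.28, 2.41 and 2.32 in LINC00862. The groups did not overlap (log2 fold change -1.67, SE 0.25, adjusted p = 0.000368). SEMA3D had 1305, 710 and 397 counts in NC and 15, 12 and 39 in LINC00862, which is 2.44, 1.35 and 0.737 against 0.0241, 0.0218 and 0.072 FPKM (log2 fold change -5.02, SE 0.60, and -5.83 without LINC00862 library 3). SEMA3E, which binds plexin-D1 without a neuropilin, went the other way. It was at 0.761, 0.538 and 0.614 FPKM in NC and at 1.37, 1.51 and 1.12 in LINC00862, a 2.35-fold rise (adjusted p = 0.000519). SEMA3G also rose, from a mean of 0.0142 to 0.0917 FPKM. The class as a whole summed to 34.2 ± 5.08 FPKM (SD, n = 3) in NC and 4.98 ± 0.303 (SD, n = 3) in LINC00862, 6.87-fold less, and its share of all semaphorin FPKM was 50.4% to 55% in NC and 20.2% to 22% in LINC00862.

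Class 4 semaphorins, membrane proteins that bind plexin-B receptors among others, were divided, with 2 higher, 2 lower and 2 not called. Each direction held 33.3% of the class, beside 34.4% higher and 29.8% lower among all tested genes. SEMA4B, the most abundant semaphorin in LINC00862, was at 9.19, 7.27 and 8.46 FPKM in NC and at 8.85, 9.19 and 7.8 in LINC00862. These FPKM ranges overlapped, although the TMM-scaled counts did not, and the log2 fold change of 0.23 (SE 0.13) had an adjusted p of 0.16. Its share of all semaphorin FPKM was 13% ± 0.946 (SD, n = 3) in NC and 36.7% ± 1.57 (SD, n = 3) in LINC00862, in a total that was 64 FPKM in NC and 23.5 in LINC00862. SEMA4C, a plexin-B2 ligand, fell from 4.36, 4.03 and 4.07 FPKM to 1.18, 0.976 and 0.981 (3.51-fold, adjusted p = 1.31e-05). SEMA4F fell from 2.82, 2.09 and 2.65 FPKM to 0.55, 0.675 and 0.344 (log2 fold change -2.10, SE 0.25). No library of one group reached the range of the other in either gene. SEMA4G rose from 0.39, 0.253 and 0.366 FPKM to 3, 2.67 and 2.49 (9.05-fold, adjusted p = 3.42e-06). SEMA4G overlaps MRPL43 on the opposite strand, whose mean was 17 FPKM in NC and 7.23 in LINC00862, opposite to SEMA4G in direction. SEMA4D (CD100), a plexin-B1 ligand, rose from 0.303 to 0.55 FPKM, and SEMA4A averaged 0.0497 and 0.0245 FPKM and was not called (adjusted p = 0.268). The summed level of the class overlapped between the groups (exact two-sided permutation p = 0.3).

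Among the transmembrane semaphorins of classes 5 and 6, 3 genes rose and 2 fell, beside 34.4% and 29.8% of all tested genes. SEMA5A, which carries thrombospondin repeats, had 8, 4 and 8 counts in NC and 746, 713 and 503 in LINC00862 (log2 fold change 6.68, SE 0.34, adjusted p = 4.92e-07), and reached only 0.609 to 0.877 FPKM. SEMA6A, a ligand of plexin-A2 and plexin-A4, was at 0.0297, 0.0668 and 0.0405 FPKM in NC and at 1.01, 1.12 and 0.994 in LINC00862. It rose 25.2-fold (adjusted p = 4.62e-06), and an antisense gene that overlaps it, SEMA6A-AS1, had a mean of 0.156 FPKM in NC and 0.536 in LINC00862. SEMA6C rose from 1.1, 1.14 and 0.966 FPKM to 2.11, 2.38 and 3.08 (log2 fold change 1.42, SE 0.22). SEMA6B fell from 1.95, 1.44 and 1.64 FPKM to 0.293, 0.278 and 0.295, a 5.05-fold fall (adjusted p = 3.81e-05). SEMA6D, a plexin-A1 ligand, had 134, 96 and 49 counts in NC and 0, 4 and 8 in LINC00862. With no more than the floor of 12 counts in LINC00862, its ratio of scaled counts was 21.8, with a counting interval of 7.18 to 109. Its fitted log2 fold change was -4.33, -3.72 without LINC00862 library 1 and -5.39 without LINC00862 library 3. SEMA7A, the lipid-anchored semaphorin that binds plexin-C1 and integrins, was at 12.2, 10 and 11.2 FPKM in NC and at 0.348, 0.514 and 0.348 in LINC00862. By mean FPKM (11.1) it was the most abundant semaphorin in NC. SEMA3C was higher in NC library 1, and SEMA3B in NC libraries 2 and 3. SEMA7A fell 24.2-fold (log2 fold change -4.60, SE 0.20, adjusted p = 1.83e-07), from rank 5 to rank 33 among the 67 members by mean FPKM.

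**Figure D2:**
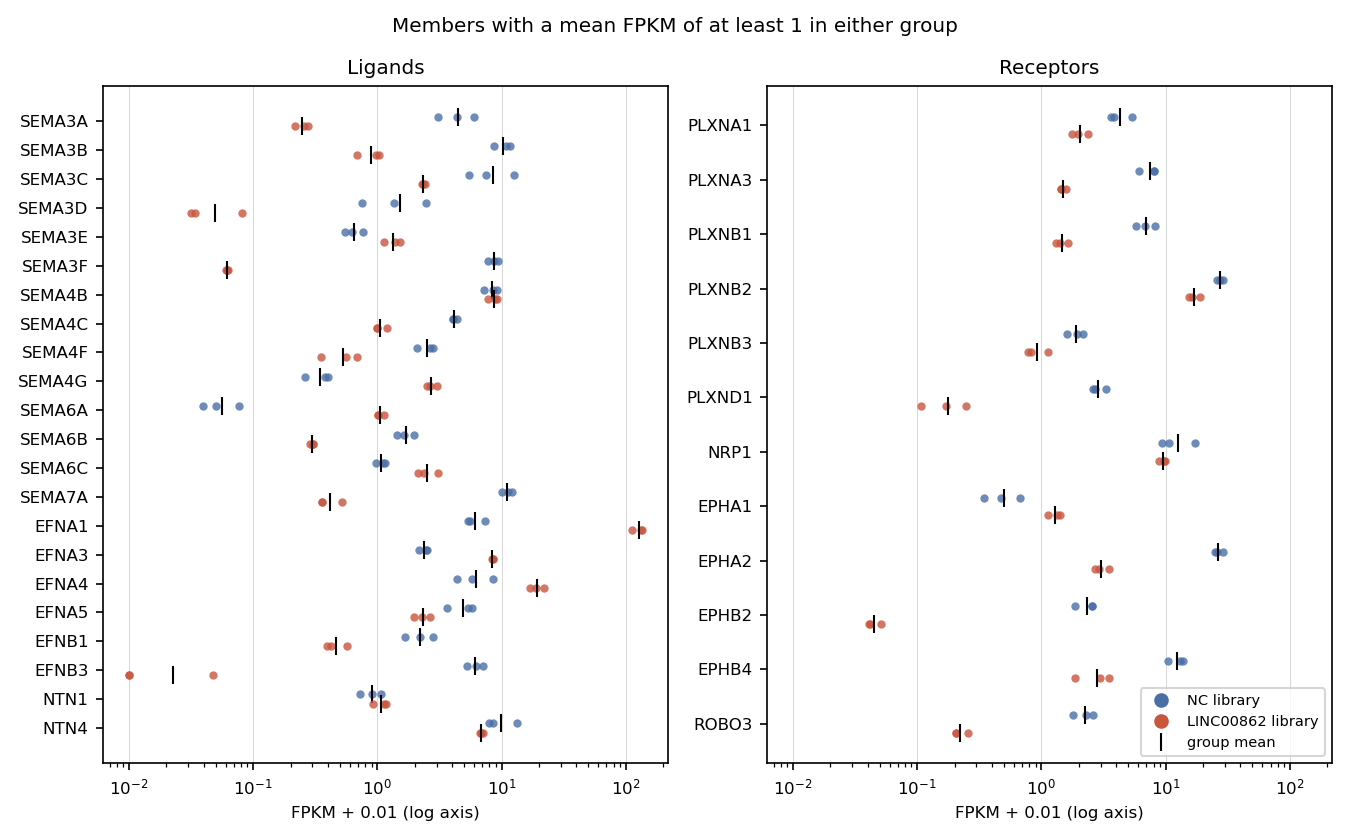
FPKM plus 0.01 (log axis) in each library for the 34 members with a mean of at least 1 FPKM in either group, ligands on the left and receptors on the right. Blue points are the 3 NC libraries, red points the 3 LINC00862 libraries and black ticks the group means; EFNA1 is the only member above 100 FPKM, and the points of SEMA4B, NRP1 and NTN1 overlap between the groups.

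Of the semaphorin receptors, 6 of 8 tested plexins fell (75%, beside 29.8% of all tested genes) and none rose (beside 34.4%). Their median log2 fold change was -0.90, beside 0.11 over all tested genes. PLXNB2, the most abundant member in NC, was at 29.2, 27.5 and 26.1 FPKM in NC and at 16.2, 19 and 15.3 in LINC00862. Its fall was the smallest among the called members, 1.46-fold (log2 fold change -0.54, SE 0.13, adjusted p = 0.00494), although the groups did not overlap. PLXNA3 fell from 8.12, 8.12 and 6.12 FPKM to 1.58, 1.42 and 1.44 (4.43-fold), and LAGE3, which overlaps it on the opposite strand, had a mean of 28.3 FPKM in NC and 8.44 in LINC00862. PLXNB1, the receptor of SEMA4D, fell from 6.88, 8.25 and 5.81 FPKM to 1.31, 1.4 and 1.63 (log2 fold change -2.09, SE 0.20, adjusted p = 1.92e-05). PLXND1, the receptor of SEMA3E, fell the most, from 3.3, 2.6 and 2.71 FPKM to 0.0977, 0.239 and 0.161 (15-fold, adjusted p = 6.57e-06). SEMA3E and PLXND1, a ligand and its receptor, thus had opposite signs.

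The other called plexins moved less. PLXNA1, a co-receptor with neuropilins, was at 5.35, 3.61 and 3.8 FPKM in NC and at 1.98, 2.35 and 1.75 in LINC00862 (log2 fold change -0.89, SE 0.16). PLXNB3, a receptor for SEMA5A, was at 1.61, 2.17 and 1.91 FPKM in NC and at 0.808, 1.13 and 0.776 in LINC00862 (log2 fold change -0.91, SE 0.22, adjusted p = 0.00612). In both genes the lowest NC library stayed above the highest LINC00862 library. PLXNA2 (0.913 and 0.989 FPKM on average, log2 fold change 0.29) and PLXNC1 (0.263 and 0.127 FPKM, log2 fold change -0.86, SE 0.37) were not called, with adjusted p-values of 0.221 and 0.0667. PLXNC1, the receptor of SEMA7A, overlaps CEP83 on the opposite strand (2.25 and 2.15 FPKM). The plexins together summed to 55.8, 53.2 and 47.7 FPKM in NC and to 23.2, 26.6 and 22.1 in LINC00862, and PLXNB2 made up 51.8% to 54.8% of the sum in NC and 69.2% to 71.2% in LINC00862.

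The neuropilins, the ligand-binding partners of plexins for class 3 semaphorins, did not pass the test. NRP1 was at 17.4, 10.7 and 9.4 FPKM in NC and at 9.66, 9.87 and 8.8 in LINC00862. NC library 1 was the highest, the ranges overlapped, and the log2 fold change was -0.22 (SE 0.19, adjusted p = 0.352) with all libraries and 0.03 without NC library 1. NRP2 was low, at 0.176 and 0.104 FPKM on average (log2 fold change -0.58, SE 0.28, adjusted p = 0.0973). By mean FPKM, NRP1 held rank 3 among the members in NC and rank 4 in LINC00862.

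The ephrin-A ligands held the largest rise in level. EFNA1, first described as a product induced by tumour necrosis factor in endothelial cells, was at 5.32, 5.58 and 7.31 FPKM in NC and at 136, 133 and 112 in LINC00862. It rose 23.3-fold (log2 fold change 4.54, SE 0.20, adjusted p = 2.48e-07), from rank 15 to rank 1 among the members. EFNA4 was at 4.37, 5.74 and 8.48 FPKM in NC and at 21.9, 19.1 and 16.8 in LINC00862 (3.46-fold, adjusted p = 0.000365). EFNA3 was at 2.44, 2.48 and 2.17 FPKM in NC and at 8.33, 8.5 and 8.5 in LINC00862, a 4.02-fold rise (adjusted p = 1.3e-05). In these 3 genes every LINC00862 library lay above every NC library, and EFNA1, EFNA4 and EFNA3 held ranks 1, 2 and 6 in LINC00862. EFNA5, a repellent of retinal axons, went down, from 5.39, 3.61 and 5.74 FPKM to 2.3, 1.98 and 2.64 (log2 fold change -0.90, SE 0.22, adjusted p = 0.00563). EFNA2 had at most 47 counts in a library and was not called. The class summed to 17.6, 17.5 and 23.7 FPKM in NC and 169, 162 and 140 in LINC00862, 8.03-fold more.

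The 3 ephrin-A genes that rose are neighbours on chromosome 1, with gaps of 9.3 kb between EFNA4 and EFNA3 and 40.3 kb between EFNA3 and EFNA1 in the table's coordinates, and all lie on the plus strand. Their upstream sequences are shown because they are the longest run of neighbouring members that moved together. Each is the 250 bases before the RefSeq start site (GRCh38.p14), on the plus strand, at chr1:155063490-155063739, chr1:155078587-155078836 and chr1:155127626-155127875, and capitals mark the GC box GGGCGG on either strand.
EFNA4: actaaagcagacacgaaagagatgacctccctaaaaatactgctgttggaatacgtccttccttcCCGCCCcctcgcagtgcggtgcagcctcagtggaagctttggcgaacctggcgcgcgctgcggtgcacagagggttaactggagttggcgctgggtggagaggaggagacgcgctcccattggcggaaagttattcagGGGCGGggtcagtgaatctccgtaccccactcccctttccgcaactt
EFNA3: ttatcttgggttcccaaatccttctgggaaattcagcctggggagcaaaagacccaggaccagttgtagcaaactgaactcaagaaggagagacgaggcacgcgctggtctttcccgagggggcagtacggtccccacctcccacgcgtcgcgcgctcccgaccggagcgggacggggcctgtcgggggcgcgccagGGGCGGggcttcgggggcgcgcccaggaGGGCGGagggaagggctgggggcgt
EFNA1: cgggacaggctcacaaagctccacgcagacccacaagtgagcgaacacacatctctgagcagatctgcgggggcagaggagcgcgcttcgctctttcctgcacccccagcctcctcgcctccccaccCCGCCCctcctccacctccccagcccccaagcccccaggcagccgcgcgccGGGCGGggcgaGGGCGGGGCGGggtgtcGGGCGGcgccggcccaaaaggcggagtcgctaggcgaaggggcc
The GC box occurred 2, 2 and 5 times in these windows, with overlapping matches counted. The TATA box TATAAA and the E-box CACCTG, a motif that Snail and ZEB factors bind among others, were not found in them on either strand. CG dinucleotides numbered 17, 23 and 24, beside a median of 11 over the 35116 promoter windows of the RefSeq table. The GC box itself is common: 42.6% of all windows hold it on either strand, 10.7% hold the TATA box and 17.5% the E-box. Of the 67 members 57 matched the table, and where it gives several start sites the one nearest the gene's start was used. The GC box was in 14 of 18 matched members that rose and in 19 of 24 that fell, the E-box in 3 and 7, and the median number of CG dinucleotides was 17 and 16.

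Ephrin-B ligands fell in all 3 members, beside 29.8% of all tested genes. EFNB3, a midline repellent in the spinal cord, was at 7.07, 5.24 and 6.17 FPKM in NC, while 2 of the 3 LINC00862 libraries had no count and the other had 8 counts, or 0.0373 FPKM. The ratio of scaled counts was 460, with a counting interval of 127 to 3810 (adjusted p = 6.74e-06). These 8 counts are under the floor of 12, and the interval reaches below the 140-fold fall of SEMA3F and overlaps that of SLIT3. The fitted log2 fold change was -8.78, -8.15 without LINC00862 library 1 and -13.32 without LINC00862 library 2, the library with the counts. EFNB1, the ephrin of craniofrontonasal syndrome, fell from 2.78, 1.66 and 2.2 FPKM to 0.414, 0.564 and 0.381 (4.29-fold, adjusted p = 0.000151). EFNB2, the ephrin of arterial endothelium, fell from a mean of 0.569 to 0.0655 FPKM (log2 fold change -2.92, SE 0.62). The class summed to 10.7, 7.29 and 8.85 FPKM in NC and to 0.502, 0.699 and 0.392 in LINC00862. Ephrin-A ligands therefore made up 62.2%, 70.6% and 72.8% of all ephrin FPKM in the NC libraries and 99.6% to 99.7% in the LINC00862 libraries, and EFNA1 alone 18.8% to 22.5% and 79.8% to 81.4%.

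All 10 tested Eph receptors differed, beside 64.2% of all tested genes. Of these receptors 6 were higher (60%, beside 34.4%) and 4 lower (40%, beside 29.8%), and the abundant ones were among those that fell. EPHA2, the main EphA receptor of epithelial and tumour cells and a receptor of ephrin-A1, was at 28.8, 25.2 and 25.8 FPKM in NC and at 2.88, 3.51 and 2.69 in LINC00862. It fell 7.8-fold (log2 fold change -2.96, SE 0.14, adjusted p = 3.72e-07), and its share of EphA FPKM was 94.9% to 96.2% in NC and 42.9% to 48.9% in LINC00862. EPHB4, the receptor of ephrin-B2 in veins, fell from 13.1, 10.4 and 13.7 FPKM to 2.97, 3.49 and 1.87 (4-fold, adjusted p = 4.25e-05). SLC12A9, which overlaps EPHB4 on the opposite strand, had a mean of 4.58 FPKM in NC and 2.23 in LINC00862. EPHB2, a target of Wnt signalling in the gut, fell from 2.53, 1.86 and 2.55 FPKM to 0.0311, 0.0412 and 0.0319 (56.9-fold, adjusted p = 1.46e-07). EPHA5 had 569, 227 and 255 counts in NC and 0, 17 and 15 in LINC00862 (log2 fold change -4.85, SE 0.84, adjusted p = 0.000845, and -4.24 without LINC00862 library 1), and a gene on the opposite strand inside it, AC115223, was at 19.2 and 16.6 FPKM.

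The Eph receptors that rose stayed low. EPHA1 was the only one above 1 FPKM, at 0.338, 0.465 and 0.662 in NC and 1.33, 1.4 and 1.13 in LINC00862 (2.94-fold, adjusted p = 0.00194). EPHA1 overlaps ZYX on the opposite strand, whose mean was 64.3 FPKM in NC and 11.3 in LINC00862, opposite to EPHA1 in direction. EPHA3 had 4, 0 and 0 counts in NC and 488, 393 and 366 in LINC00862. Its ratio of scaled counts was 333, with a counting interval of 59.3 to 13200, and its mean level in LINC00862 was 0.9 FPKM. EPHA6 and EPHA10 rose from means of 0.0158 and 0.0147 FPKM to 0.57 and 0.354, with at most 18 counts in any NC library. EPHB6, which lacks kinase activity, had 8, 0 and 11 counts in NC and 77, 49 and 49 in LINC00862 (log2 fold change 3.27, SE 0.83, adjusted p = 0.00731). Leaving out NC library 1 moved the log2 fold change of EPHA3 from 8.25 to 11.71, with no count left in NC, and that of EPHA6 from 5.31 to 5.96. Leaving out NC library 3 moved EPHA10 from 4.67 to 5.95 and EPHB6 from 3.27 to 3.97. Other libraries moved these values the other way. Without NC library 2, EPHA10 was at 4.1 and EPHB6 at 2.69, and without NC library 3, EPHA6 was at 4.75. The log2 fold change of EPHA3 was also smaller without NC library 2 or 3. EPHA4 rose from 0.185 to 0.352 FPKM with an adjusted p of 0.0244, a call that was lost without NC library 2 (adjusted p = 0.063) and without LINC00862 library 1, 2 or 3 (0.0717, 0.06 and 0.0536), at log2 fold changes of 1.09 to 1.15. By level, the EphA receptors summed to 26.2 to 30.3 FPKM in NC and 5.66 to 7.19 in LINC00862, and the EphB receptors to 12.3 to 16.3 and 2.03 to 3.66.

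**Figure D3:**
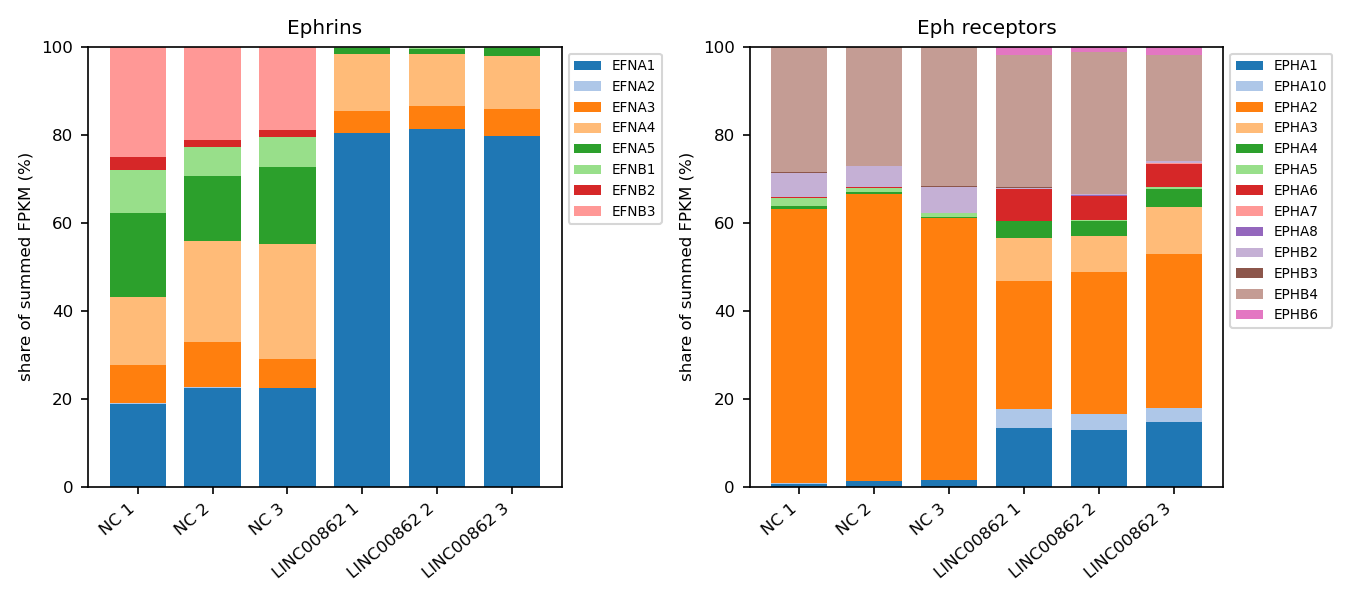
Share of each gene in the summed FPKM of the 8 ephrins (left) and of the 13 Eph receptors (right) in each of the 6 libraries, in percent. EFNA1 makes up about 80% of the ephrin bars in LINC00862 and about 20% in NC, and EPHA2 is the largest receptor block in each NC library.

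Set side by side, the ephrins summed to 28.5 ± 3.9 FPKM (SD, n = 3) in NC and 158 ± 15.4 (SD, n = 3) in LINC00862, and the Eph receptors to 42.7 ± 3.82 (SD, n = 3) and 9.48 ± 1.62 (SD, n = 3). Among the ligands it was the A class that rose and the B class that fell, whereas the summed level of both receptor classes was lower in LINC00862. Over the families, 16 sums were compared, and none of the exact two-sided permutation tests can give a p below 0.1 with 3 libraries in each group. That smallest value (0.123 after Benjamini-Hochberg adjustment over the 16 sums) was reached by 13 of them, all but the class 4 semaphorins, the neuropilins and all members together. In these 13 families the libraries of the groups did not overlap, but the test cannot pass a threshold of 0.05.

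**Figure D4:**
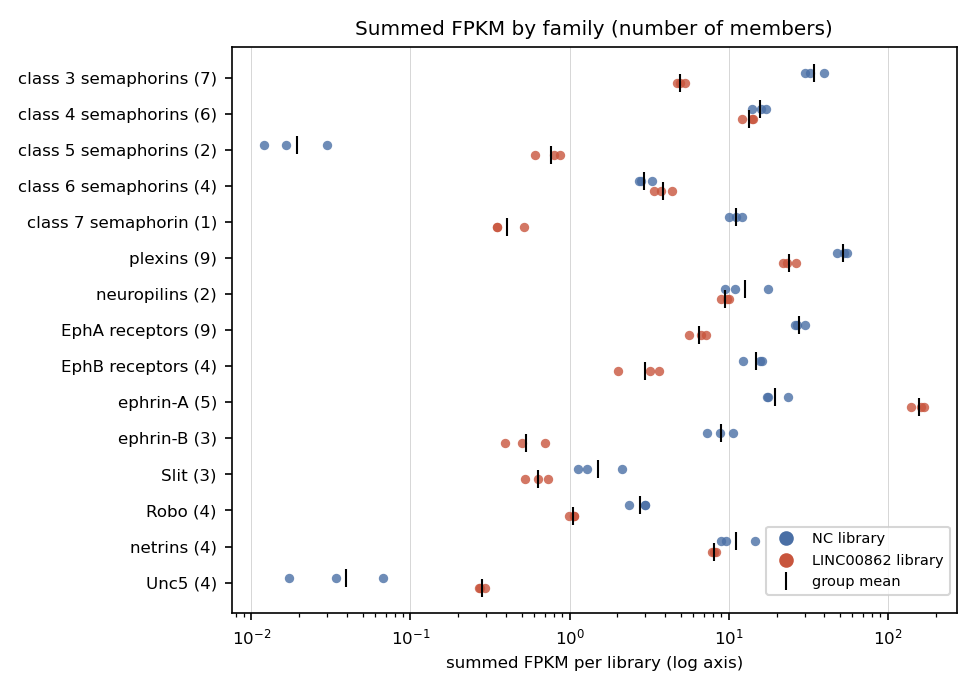
Summed FPKM per library (log axis) of each family, with the number of members in parentheses. Blue points are NC libraries, red points LINC00862 libraries and black ticks group means; the sums do not overlap except for class 4 semaphorins and neuropilins, and ephrin-A and ephrin-B ligands lie apart in opposite directions.

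Slits and Robo receptors moved in both directions at low level. SLIT3 had 731, 365 and 548 counts in NC and 4, 7 and 0 in LINC00862, a ratio of scaled counts of 140 with a counting interval of 43.6 to 625 (adjusted p = 1.45e-05), from a mean of only 0.579 FPKM. SLIT2, the best known Robo ligand, averaged 0.936 FPKM in NC and 0.578 in LINC00862 and was not called (adjusted p = 0.117). SLIT1 rose from 8, 0 and 0 counts in NC to 36, 29 and 31 in LINC00862, a ratio of 12.8 with a counting interval of 3.18 to 112. Its log2 fold change was 3.67, and 8.03 without NC library 1, the only NC library with a count, while that of SLIT3 was -7.08, and -7.93 without LINC00862 library 2. The rise of SLIT1 was smaller without NC library 2 or 3, and the fall of SLIT3 was smaller without LINC00862 library 3. A fitted value against a group at 0 depends on the prior count and is no bound. ROBO1, the principal Slit receptor outside the nervous system, rose from 75, 33 and 34 counts to 627, 587 and 550 (13.5-fold, adjusted p = 1.49e-05), which is 0.0642 and 0.761 FPKM on average. ROBO3, which promotes midline crossing, fell from 1.78, 2.59 and 2.28 FPKM to 0.195, 0.197 and 0.246 (9.03-fold, adjusted p = 1.03e-05). ROBO4, the endothelial Robo, lies 2.2 kb from ROBO3 on chromosome 11 and also fell, from a mean of 0.49 to 0.0647 FPKM. The most abundant Robo was thus ROBO3 in NC and ROBO1 in LINC00862.

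None of the 4 netrins was called, beside 64.2% of all tested genes. NTN4, a basement membrane netrin and the most abundant of them, was at 13.4, 8.58 and 7.87 FPKM in NC and at 7.06, 6.66 and 6.78 in LINC00862 (log2 fold change -0.35, SE 0.18, adjusted p = 0.122). NC library 1 was again the highest. NTN1, the founding netrin, was at 1.06, 0.715 and 0.896 FPKM in NC and at 1.13, 1.16 and 0.905 in LINC00862 (log2 fold change 0.43, SE 0.21, adjusted p = 0.107). Its FPKM ranges overlapped, although its TMM-scaled counts did not. NTN3 and NTN5 were below 0.3 FPKM in every library. Of the Unc5 receptors, UNC5A rose from 0, 4 and 4 counts to 50, 52 and 61 and UNC5C from 5, 0 and 4 to 26, 33 and 34. Their ratios of scaled counts were 21.8 (counting interval 5.68 to 187) and 11 (3.03 to 107), and both averaged under 0.2 FPKM in LINC00862. The log2 fold change of UNC5A was 4.38, and 3.79 without NC library 1.

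The 8 members not tested had at most 47 counts in a library. They were SEMA5B, PLXNA4, EPHA7, EPHA8, EPHB3, ROBO2, UNC5B and UNC5D. SEMA5B and UNC5D had no count in LINC00862, and EPHA7 had none in NC. The scaled counts of the other group were 1.64-fold, 2.73-fold and 1.42-fold a floor of 12 counts over the group without counts. These values leave out the counting error of the group with counts, so they are no bounds, and no difference is claimed for these 3 genes. EPHA8 had 4 counts in all, so no fold is given.

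Members that lie within 1 Mb of each other formed 11 pairs in the table's coordinates, and both genes of 9 of them were tested. In 8 of these 9 the genes had the same direction. The share of such pairs among all neighbouring genes was not computed, and the 3 ephrin-A pairs come from the same 3 genes. The falling pairs were SEMA3B with SEMA3F (78.5 kb apart), SEMA3A with SEMA3D (503 kb), PLXNA3 with PLXNB3 (678.9 kb) and ROBO3 with ROBO4, and the rising ones EPHA1 with EPHB6 (519.2 kb) and the 3 pairs among EFNA1, EFNA3 and EFNA4. SEMA3E was the exception: it rose 306.6 kb from SEMA3A, which fell. SEMA3F and SEMA3E are shown because they had the largest fall and the largest rise above 0.1 FPKM in class 3. SEMA3D is shown because it is the falling member nearest to SEMA3E with a promoter in the table, although more than 1 Mb from it. Each is the 250 bases before the start site in GRCh38.p14, at chr3:50154808-50155057 (plus strand), chr7:83649140-83649389 (minus strand) and chr7:85187057-85187306 (minus strand), with GC boxes and E-boxes on either strand in capitals.
SEMA3F: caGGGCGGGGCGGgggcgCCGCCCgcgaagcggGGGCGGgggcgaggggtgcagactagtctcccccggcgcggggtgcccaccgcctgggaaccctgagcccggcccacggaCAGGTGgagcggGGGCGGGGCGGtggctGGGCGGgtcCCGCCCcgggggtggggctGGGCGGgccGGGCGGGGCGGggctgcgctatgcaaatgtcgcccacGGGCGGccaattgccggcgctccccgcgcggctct
SEMA3E: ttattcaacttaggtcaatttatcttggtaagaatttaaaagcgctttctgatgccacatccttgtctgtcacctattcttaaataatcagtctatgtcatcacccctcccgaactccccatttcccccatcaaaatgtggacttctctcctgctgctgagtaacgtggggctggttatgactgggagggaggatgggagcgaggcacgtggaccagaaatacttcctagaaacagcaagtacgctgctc
SEMA3D: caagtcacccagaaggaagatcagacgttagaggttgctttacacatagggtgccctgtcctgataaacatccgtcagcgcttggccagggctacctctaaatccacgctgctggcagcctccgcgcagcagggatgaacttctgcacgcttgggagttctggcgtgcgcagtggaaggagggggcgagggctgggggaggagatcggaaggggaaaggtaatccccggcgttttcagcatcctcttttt
SEMA3F held 12 GC boxes, 1 E-box and 34 CG dinucleotides in this window. SEMA3E and SEMA3D held none of the 3 motifs, with 6 and 13 CG dinucleotides. The SEMA3F window is the nearest of 3 start sites in RefSeq, and SEMA3F-AS1, which overlaps SEMA3F on the opposite strand, was at 1.44 FPKM in NC and 0.815 in LINC00862.

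Other guidance cues and receptors, a list of 21 symbols of which 19 were found and 14 tested, had 6 genes higher (42.9%, beside 34.4% of all tested genes) and 6 lower (42.9%, beside 29.8%), with a median log2 fold change of 0.34. L1CAM, an adhesion molecule of axons and of invasive tumours, fell from 9785, 7021 and 5693 counts to 28, 33 and 11 (log2 fold change -8.19, SE 0.35, adjusted p = 2e-07). NFASC, a neural adhesion molecule of the same family, fell from a mean of 1.63 to 0.00725 FPKM, and RGMB, a neogenin ligand and bone morphogenetic protein co-receptor, from 39.7 to 4.77 FPKM. Contactin-1 (CNTN1) rose from 0.00681 to 1.65 FPKM (log2 fold change 7.92, SE 0.56), FLRT1 from 0.242 to 1.05 and FLRT3 from 0.358 to 1.14. The log2 fold change of NFASC was -7.53, and -8.16 without LINC00862 library 1, and that of CNTN1 was 8.79 without NC library 3. The netrin receptor DCC was not tested.

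Intracellular transducers and effectors of these receptors leaned towards lower levels. Of 50 genes 49 were tested, 29 were lower (59.2%, beside 29.8% of all tested genes) and 9 higher (18.4%, beside 34.4%), and the median log2 fold change was -0.83. TIAM1, a Rac exchange factor, fell from 824, 644 and 488 counts to 0, 0 and 11. Its log2 fold change was -7.28, -6.65 without LINC00862 library 1 and -12.33 without LINC00862 library 3, the only LINC00862 library with a count. DPYSL2 (CRMP2), which carries the semaphorin signal to microtubules, fell from a mean of 23.5 to 0.791 FPKM (log2 fold change -4.71, SE 0.23, adjusted p = 3.76e-07), and the Src-family kinase FYN from 4.27 to 0.198 FPKM. VAV3, an exchange factor recruited by Eph receptors, rose from 0, 8 and 23 counts to 2742, 2437 and 2228 (log2 fold change 7.96, SE 0.64, with 7.35 without NC library 1 and 9.34 without NC library 3). RND1, which binds plexins, rose from 0.191 to 6.94 FPKM (adjusted p = 1.39e-07), and ABLIM3, an actin-binding protein, from 1.22 to 4.48 FPKM. All 3 rises and all 3 falls named here were without overlap between the groups in the deposited counts. They were picked for the size of their change, so this adds no support. In scaled counts, 79.6% of the tested genes of this list did not overlap, beside 71.1% of all tested genes.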

How the data were processed

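RNA was captured with oligo(dT), strand was kept by dUTP marking of the second strand, and the adapters carried molecular identifiers. The submitters' processing notes name cutadapt 1.9, HISAT2 2.0.4, UMI-tools, StringTie 1.3.4d, edgeR, DESeq2 and hg38, and which strand setting was used for counting is not given in the sources used here. For each gene the authors deposited a raw read count and the FPKM, scaled by transcript length and mapped fragments. Columns were matched to samples by name. Low counts pile up at multiples of 4: each library had 1269 to 1450 genes with a count of 4, beside 652 to 848 with a count of 3 and 397 to 542 with a count of 5. A fragment was therefore taken as 4 counts at low level, and the floor as 12 counts over a group (3 fragments).

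All 35856 genes were filtered with filterByExpr, scaled by TMM and tested with edgeR 4.0.16 in R 4.3.3 (quasi-likelihood, Benjamini-Hochberg adjustment over 20741 genes, called under 0.05). Standard errors were derived from the test statistic. Counting intervals are 95% exact binomial intervals at 4 counts per fragment. Intervals and floors cover counting error only. Family sums of FPKM were compared by exact two-sided permutation tests over libraries (scipy 1.17.1). Promoter windows came from a RefSeq table. Genes overlapping on opposite strands may share reads if strand was not used in counting. Scripts were tested on simulated data.

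Members with a mean of at least 1 FPKM in a group, the largest called rise and fall of each family above 0.1 FPKM, neighbours within 1 Mb, and the 3 largest called rises and falls of each pathway list above 1 FPKM were named. Other members were named as not called, not tested or called at low level. The members and lists were chosen with earlier results of these data known. The single value of 1 marker gene is not reported here.

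Alternatives comprised a test against a 2-fold change, leaving out 1 library at a time, a replicate block, no count filter, other scalings (upper quartile, or library size alone), DESeq2 1.42.0, limma 3.58.1 with trend on log2 FPKM after adding 1 or 0.1, FPKM sums rescaled by TMM and, chosen after seeing the data, counts divided by 4.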

Additional observations from a re-analysis of the deposited data

How the results depend on the processing

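The number of members called was 47 in the analysis reported and 44 to 50 under the other scalings, filters, tests and units, except for 40 (17 higher, 23 lower) in the test against a fold change of 2. That test called 8010 of all genes (13321 without the fold) and 24 transducers and effectors, 17 of them lower (38 and 29 without it). Of the marker lists, the endothelial one had 2 genes called, 1 of them lower, in 4 alternatives, and the epithelial one 1 lower gene without NC replicate 1, while the lower genes numbered 1 in the hepatocyte list with counts divided by 4 and 0 in the neuronal list with the fold. Leaving out each library in turn gave 47 to 49 members called, 19 to 21 higher and 27 to 29 lower. Counts divided by 4, an alternative chosen after seeing the data, left 52 members to test and called 44, 17 higher and 27 lower. Over all tested genes the median log2 fold change moved from 0.11 to 0.16 under DESeq2, to 0.32 under upper quartile scaling and to -0.05 when only library size was used, so members with small changes depend on the scaling. Of 819 alternative values of the 59 tested members, 798 kept direction and call and 49 genes did so in all of theirs. NRP1 changed sign, to 0.00 with upper quartile scaling, and ranged from -0.35 to 0.03 when 1 library was left out. EPHA4 lost its call with library size only (0.94) as well as without the libraries named above, and UNC5C lost it in limma-trend on log2(FPKM + 1), where low levels are compressed. Calls were gained, in at least 1 alternative, by SEMA4B, PLXNA2, PLXNC1, NRP2, NTN1, NTN3 and NTN5, each not called in the analysis reported. NTN3 rests on 1 library: without NC replicate 2, the only NC library with a count, its adjusted p was 0.00437. The log2 ratios of the family sums kept their direction in all alternatives run. Libraries of the same number in the 2 groups did not deviate together (r = -0.049, -0.025 and -0.007), so the numbers were not taken as pairs, and a replicate block called 47 members (20 higher, 27 lower). Depth limits members under about 12 counts over a group, whose ratios carry wide intervals.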

Other observations

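Genes that overlap a member on the opposite strand were listed for 25 of the 67 members. Partners of tested members with a mean of at least 2 FPKM in a group were MRPL43 (SEMA4G), LAGE3 (PLXNA3), CEP83 (PLXNC1), ZYX (EPHA1), AC115223 (EPHA5) and SLC12A9 (EPHB4). ZYX had 13002, 11821 and 16900 counts in NC and 3265, 2483 and 2056 in LINC00862, beside 106, 143 and 208 and then 481, 436 and 359 for EPHA1. MRPL43 had 3179, 4291 and 4563 counts in NC and 2006, 1727 and 1693 in LINC00862. Both partners were thus lower where the member was higher. AC115223 had 923, 1166 and 1228 counts in NC and 1228, 962 and 852 in LINC00862, with overlapping ranges, while EPHA5 fell. The partners were named after their values were seen.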
